A study of Mus musculus with 6 samples.

Results

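The core circadian clock genes were followed in neonatal mouse back skin: Arntl, Clock, Per1, Per2, Per3, Cry1, Cry2, Nr1d1, Nr1d2 and Dbp. Every probe set whose platform annotation gives exactly 1 gene symbol, that symbol being one of these 10, was kept, which gave 23 of the 45037 probe sets tested. Whole back skin came from 6 female littermates at postnatal day 2.5 (P2.5), 1 array per animal, on mixed FVB/N and C57BL/6 genetics. In 3 of them, labelled K5cre-caNrf2 (tg/tg), a Cre recombinase under the keratin 5 promoter was combined with a constitutively active Nrf2 (caNrf2), a transcription factor that drives antioxidant and detoxification genes. The other 3, labelled K5cre-wt (tg/wt), were the controls, and both groups thus carry K5cre by their labels. The labels of both groups also carry the word weak, with no explanation given. The keratin 5 promoter is active in basal keratinocytes, whereas the RNA came from all cells of the skin. In such samples fewer cells of a type and less RNA per cell cannot be told apart. The hour at which each animal was sacrificed is not given in the sources used here.

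The circadian clock is a loop of transcription and translation that runs in nearly every cell. The proteins of Arntl (also called Bmal1) and Clock bind E-boxes and switch on the Per and Cry genes, whose proteins return to inhibit them. In a second loop the nuclear receptors encoded by Nr1d1 and Nr1d2 repress Arntl through response elements that ROR receptors activate, and Dbp is an output factor that acts through D-boxes. In adult skin the clock runs in keratinocytes, fibroblasts and hair follicles, and the transcripts of Arntl and of the Per and Dbp genes are known to peak at opposite times of day.

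The promoters of 4 members are shown because Cry1 and Arntl had the only probe sets with every caNrf2 value above every control value, Per1 varied widely between animals, and Per3 holds D-box letters. The sequences are those of RefSeq, build GRCm38.p6. There 9 of the 10 members matched with 13 windows, each reaching from 250 bases before to 50 bases after a transcript start. Per2 had no window and was not searched. Some windows of the same gene overlap, as for Arntl and Clock. The letters searched on both strands of these windows were CACGTG (E-box), CACGTT (a variant, the E-prime-box), TTATGTAA (D-box), TAGGTCA (the core of the element bound by Nr1d and ROR receptors, RORE), TGACGTCA (cAMP response element) and TGACNNNGC (antioxidant response element, bound by Nrf2). Capitals mark matches that lie wholly within a printed stretch. All sequences run 5′ to 3′ on the strand of the gene, and positions count from the transcript start.

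Cry1, chr10:85185055-85185304, minus strand, with the E-prime-box (AACGTG on this strand) and the E-box in capitals: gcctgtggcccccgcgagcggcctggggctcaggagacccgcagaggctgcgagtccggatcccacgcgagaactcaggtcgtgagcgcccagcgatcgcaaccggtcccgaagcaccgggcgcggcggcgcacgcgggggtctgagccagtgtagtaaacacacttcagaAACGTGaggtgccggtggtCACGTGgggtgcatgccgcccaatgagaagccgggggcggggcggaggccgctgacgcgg

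Per1, chr11:69098699-69098948, plus strand, with 2 antioxidant response element matches and, between them, the E-box in capitals: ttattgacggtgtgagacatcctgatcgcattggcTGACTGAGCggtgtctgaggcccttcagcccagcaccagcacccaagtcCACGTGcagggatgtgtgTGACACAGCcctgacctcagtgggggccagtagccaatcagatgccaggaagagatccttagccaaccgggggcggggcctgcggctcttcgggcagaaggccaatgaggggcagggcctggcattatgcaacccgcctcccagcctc

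Per3, chr4:151044666-151044915, minus strand, with both D-boxes in capitals: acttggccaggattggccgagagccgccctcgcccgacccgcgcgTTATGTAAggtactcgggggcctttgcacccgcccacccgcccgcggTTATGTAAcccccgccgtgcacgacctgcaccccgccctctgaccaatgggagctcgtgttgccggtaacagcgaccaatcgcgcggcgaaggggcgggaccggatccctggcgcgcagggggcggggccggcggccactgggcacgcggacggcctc

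Arntl, chr7:113207530-113207558, plus strand, a short stretch downstream of the second of its annotated starts, with the RORE core in capitals: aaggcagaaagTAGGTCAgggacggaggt

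E-box letters stood in 2 of the 13 windows, those of Per1 (first base at -166) and Cry1 (at -60), and in 7.15% of the 32851 promoter windows of the same length. E-prime-box letters stood in 3 windows, of Cry1 (at -79), Cry2 (at -166) and Nr1d1 (at -28), against 4.68% of all. Both copies of the D-box in Per3 began at -205 and -158, and 0.938% of all windows hold these letters. The RORE core was found in 1 window, of Arntl (at 31), against 2.61% of all, and the cAMP response element in 0 of the 13, against 1.79%. The antioxidant response element letters stood in 4 windows, of Per1 (at -215 and -148), Cry1, Cry2 and Nr1d2, against 12.4% of all. In Cry1 they matched on opposite strands in places that overlap each other at the transcript start (at -8 and -1). Both reach past the end of the printed Cry1 stretch and are not in capitals there. The cAMP response element and the antioxidant response element begin with the same letters. A match of letters is a description and not a binding site.

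None of the 23 clock probe sets differed between caNrf2 and control skin at an adjusted p under 0.05 (limma, Benjamini-Hochberg over all 45037 probe sets), and the smallest adjusted p was 0.483, for Cry1. Over all probe sets 0.24% passed, 0.226% higher and 0.0133% lower in caNrf2 skin. At an unadjusted p under 0.05 there were 2 clock probe sets, against 8.86% of all probe sets. Of the 23, 12 lay above and 11 below 0, and 48.4% of all probe sets lay above 0. The clock probe sets had a median log2 difference of 0.01, between -0.18 and 0.20, and the median over all probe sets was -0.00. With the brightest probe set of each gene, 8 of the 10 genes lay above 0, and the median was 0.11. Of all probe sets at or above the median level, 13316 of 22519 lay above 0, with a median of 0.02. The even split of the 23 thus depended on the dimmer probe sets. The 95% intervals of the 23 differences reached from 0.76 to 1.39 times the control level. The groups did not overlap for 2 clock probe sets higher and 1 lower in caNrf2 skin, so for 3 of the 23, against 14.2% of all probe sets (6.9% higher and 7.28% lower).

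**Figure D1:**
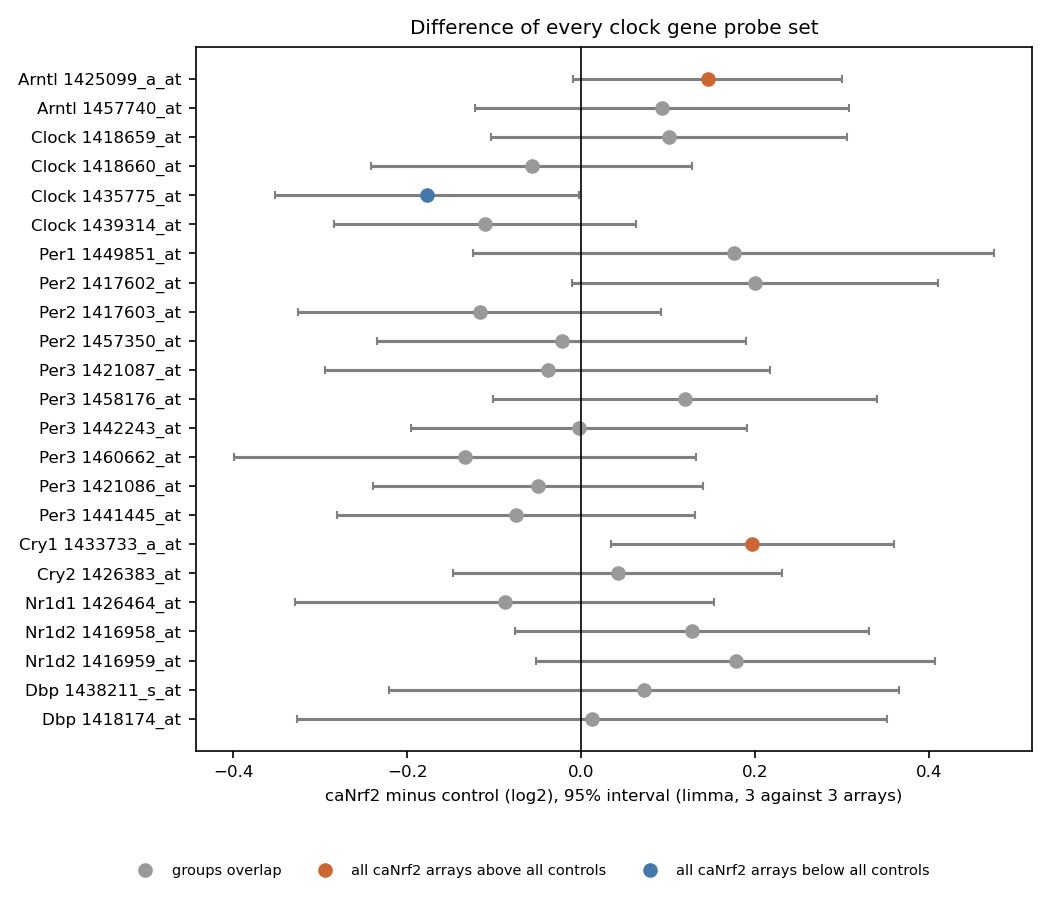
Difference between caNrf2 and control skin for each of the 23 clock gene probe sets (x axis, log2, point and 95% interval from limma over 3 against 3 arrays; y axis, gene and probe set). The intervals cross 0 except for Cry1 and 1 Clock probe set, and neither of these passed the threshold after adjustment.

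Arntl, the partner of Clock in the activating complex, had log2 values of 8.31, 8.32 and 8.33 on control arrays 1 to 3 and of 8.50, 8.45 and 8.46 on caNrf2 arrays 1 to 3. The 3 caNrf2 values (SD 0.0262) lay above the 3 control values (SD 0.0074), and the groups did not overlap. The difference was 0.15 ± 0.07 (SE, n = 3 per group), or 1.11-fold with a 95% interval of 0.99 to 1.23, and did not pass the threshold (adjusted p = 0.585). Two-sided exact permutation of the arrays gave p = 0.1, the smallest that 3 against 3 can give. A dimmer Arntl probe set measured 6.04, 5.76 and 6.09 in control and 6.04, 5.99 and 6.14 in caNrf2 skin, so that the groups overlapped.

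Clock, which encodes the other subunit of that complex, was measured by 4 probe sets that did not move one way. The brightest gave 8.25, 8.22 and 8.39 in control and 8.47, 8.22 and 8.48 in caNrf2 skin, a difference of 0.10 ± 0.09 with overlap (adjusted p = 0.793). The next but 1 in brightness gave 7.31, 7.32 and 7.41 in control and 7.14, 7.10 and 7.27 in caNrf2 skin. All of its caNrf2 values lay below all control values, by 0.18 ± 0.08 (adjusted p = 0.556). The remaining 2 Clock probe sets differed by -0.06 and -0.11, and both overlapped.

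Cry1, a repressor of the activating complex, showed log2 values of 8.81, 8.86 and 8.89 in control skin and of 8.99, 9.05 and 9.10 in caNrf2 skin. Again every caNrf2 animal lay above every control animal. Its difference of 0.20 ± 0.07, or 1.15-fold with an interval of 1.02 to 1.28, had an unadjusted p of 0.022 and an adjusted p of 0.483, and adjusted p ranged from 0.234 to 0.803 over the alternatives run. Cry2, the second cryptochrome, measured 8.07, 8.19 and 8.15 in control and 8.09, 8.32 and 8.11 in caNrf2 skin, with overlap and a difference of 0.04 ± 0.09. Beside the Arntl and Cry1 values stand those of the hybridisation controls, which are added in fixed amounts and averaged 0.17 higher (log2) on caNrf2 arrays, each above each control array (exact permutation p = 0.1). The difference between the 3-prime and the 5-prime Gapdh control probe sets, a sign of RNA integrity, was 0.03 lower in caNrf2 skin, also without overlap (exact permutation p = 0.1), and that of actin was 0.00 (exact permutation p = 1). Their part in the result was not tested. After each array was centred on its median, no clock probe set passed either. The array medians lay within -0.011 to 0.011 (log2) of the common median beforehand. Centring therefore changed little and cannot address the shift of the hybridisation controls.

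Per1, a period gene that also answers to hormones and acute stimuli, measured 7.26, 7.38 and 7.41 on control arrays 1 to 3 and 7.15, 7.73 and 7.70 on caNrf2 arrays 1 to 3. The caNrf2 animals thus split, with animals 2 and 3 above and animal 1 below all controls. The mean difference was 0.18 ± 0.14 (adjusted p = 0.747). Without caNrf2 animal 1 it was 0.36, with an adjusted p of 0.123, the smallest of any clock probe set under any alternative.

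Per2 was dimmer. Its brightest probe set measured 6.26, 6.15 and 5.97 in control and 6.21, 6.33 and 6.43 in caNrf2 skin, with caNrf2 animal 1 inside the control range. The difference was 0.20 ± 0.10 (adjusted p = 0.583). The other Per2 probe sets differed by -0.12 and -0.02, so the 3 do not point one way. Per3 had 6 probe sets, of which 5 lay below 0 and 1 above, between -0.13 and 0.12, and all overlapped. The brightest measured 7.09, 7.09 and 6.87 in control and 7.01, 7.19 and 6.74 in caNrf2 skin, a difference of -0.04 ± 0.12 (adjusted p = 0.955). The remaining 5 had mean log2 levels between 4.66 and 5.78. For orientation, 9 probe sets of the Y-linked genes Eif2s3y, Kdm5d and Uty, silent in females, had means between 2.77 and 3.74, although levels of different probes are not comparable in a strict sense.

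**Figure D2:**
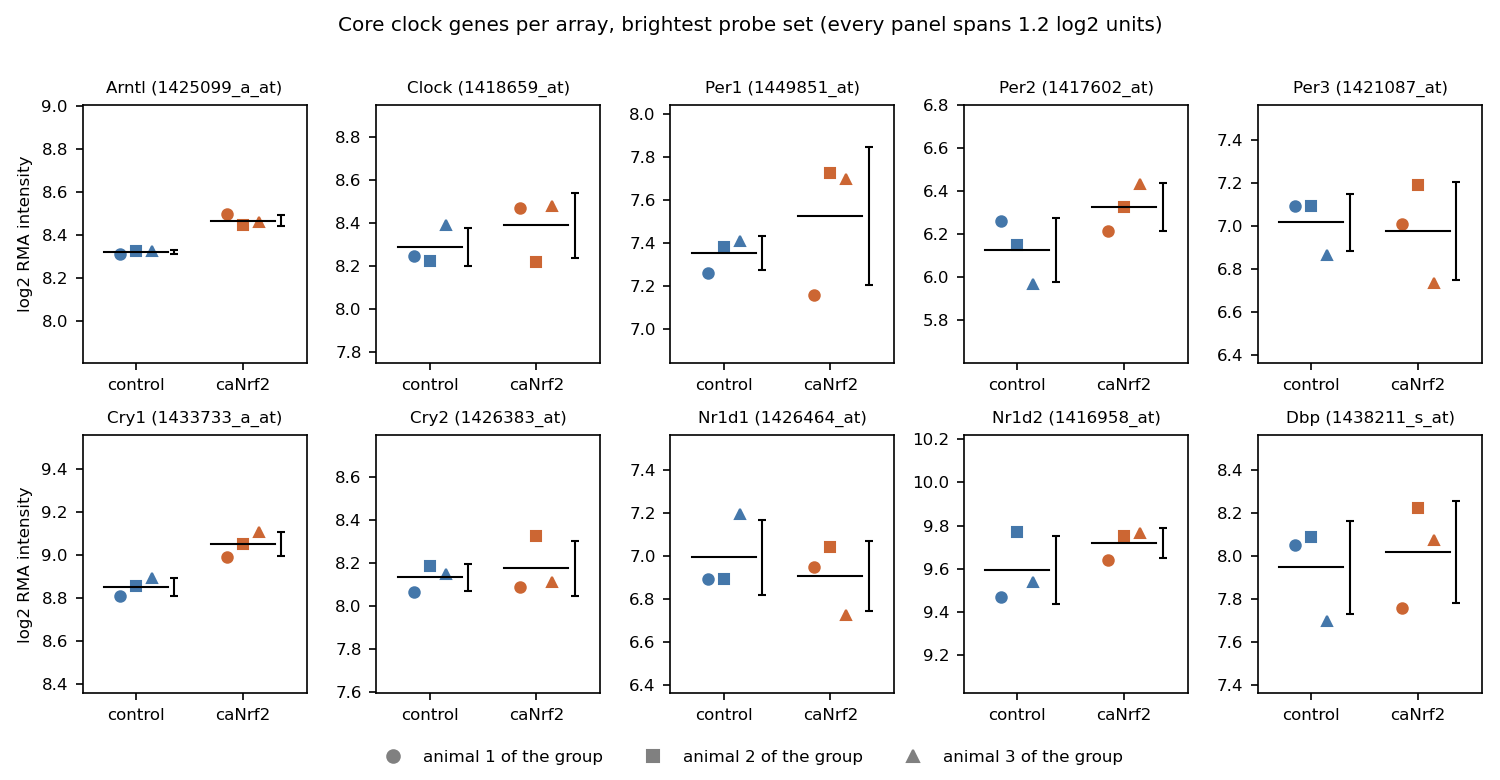
Log2 RMA intensity of the brightest probe set of each clock gene (y axis) in control and caNrf2 skin (x axis). Symbols are single animals, horizontal lines are group means and bars are SD (n = 3). The groups separate for Arntl and Cry1, and they overlap for the other 8 genes.

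Nr1d1, the repressor of Arntl, measured 6.89, 6.89 and 7.20 in control and 6.95, 7.04 and 6.73 in caNrf2 skin. Control animal 3 was the highest and caNrf2 animal 3 the lowest of the 6, and the groups overlapped at a difference of -0.09 ± 0.11 (adjusted p = 0.855). Its paralogue Nr1d2 measured 9.47, 9.77 and 9.54 in control and 9.64, 9.75 and 9.77 in caNrf2 skin, a difference of 0.13 ± 0.09 (adjusted p = 0.723). A dimmer Nr1d2 probe set differed by 0.18 ± 0.10 in the same direction, with overlap in both. With single arrays left out the differences ran from 0.07 to 0.22 and from 0.08 to 0.29.

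Dbp, the clock's output factor, measured 8.05, 8.09 and 7.70 on control arrays and 7.76, 8.22 and 8.08 on caNrf2 arrays. Control animal 3 and caNrf2 animal 1 were low, and the means differed by only 0.07 ± 0.13 (adjusted p = 0.911). This probe set is of a kind (_s_at) that can match transcripts of more than 1 gene. The second Dbp probe set repeated the order within each group, with 7.16, 7.20 and 6.90 in control and 6.75, 7.46 and 7.09 in caNrf2 skin, a difference of 0.01 ± 0.15 (adjusted p = 0.991). The span over the 6 animals, 0.71 on the log2 scale for that probe set and 0.52 for the brighter one, can be set beside their differences between group means of 0.01 and 0.07.

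Clock genes differed widely in how much littermates of 1 genotype varied. The spread was the pooled SD within groups, set as a percentile against all probe sets within 0.5 log2 units of the same mean level, which is a description of 4 degrees of freedom and no test. Dbp (SD 0.23, percentile 97.4), Per1 (SD 0.23, percentile 97.5), Per3 (SD 0.19, percentile 92.5) and Nr1d1 (SD 0.17, percentile 87.9) were among the more variable. The pooled value of Per1 came mainly from the caNrf2 animals, with an SD of 0.08 in control and 0.32 in caNrf2 skin. The SD in control and caNrf2 skin was 0.22 and 0.24 for Dbp, 0.13 and 0.23 for Per3, and 0.18 and 0.16 for Nr1d1. The second Dbp probe set stood at percentile 98.8. Arntl was at the other end with an SD of 0.02, at percentile 0.4, and Cry1 had an SD of 0.05, at percentile 11.5. Between them lay Nr1d2 at percentile 78.8, Clock at 73.8, Per2 at 62.5 and Cry2 at 54.6. The dimmer Arntl probe set had an SD of 0.14, at percentile 63.7, so the tightness of Arntl was seen with 1 of its 2 probe sets. The other 5 Per3 probe sets stood at percentiles 31.8 to 87.4 and the other 3 of Clock at 14.2 to 47.2. Over all 23 clock probe sets the median SD was 0.129, against 0.105 over all probe sets.

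**Figure D3:**
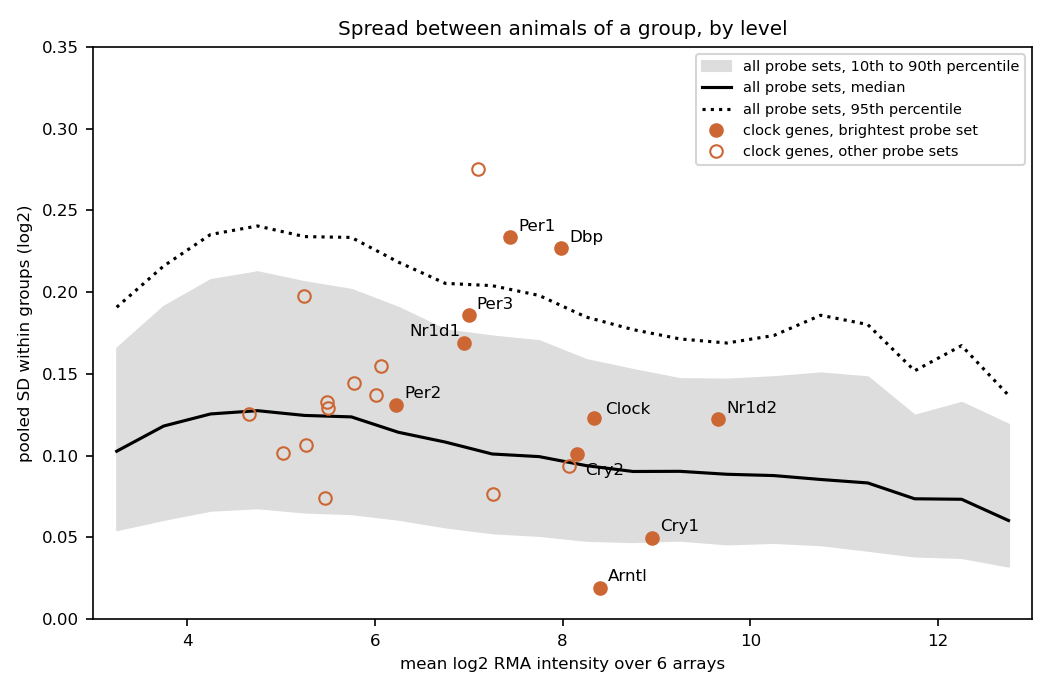
Pooled SD within groups (y axis, log2) against the mean level over the 6 arrays (x axis, log2 RMA intensity). Filled points are the brightest probe set of each clock gene, open points the other probe sets, and the band, line and dotted line are percentiles of all probe sets at that level. Dbp and Per1 lie above the dotted line, the 95th percentile, and Arntl lies below the band.

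Relative to the mean of its own group, control animal 3 was lower for Dbp by 0.25, for Per2 by 0.16 and for Per3 by 0.15, and higher for Nr1d1 by 0.20 and for Clock by 0.10. CaNrf2 animal 1 was lower for Per1 by 0.37 and for Dbp by 0.26, and caNrf2 animal 2 was higher for Per3 by 0.21, Dbp by 0.20 and Per1 by 0.20 while lower for Clock by 0.17. On the brightest probe sets the animal highest in Dbp was the lowest in Clock in both groups, but in control skin 2 of the 4 Clock probe sets had another lowest animal, and the other animals did not follow one order across the 10 genes. Among the caNrf2 animals, animal 1 was the lowest for 6 of the 10 genes, namely Per1, Per2, Cry1, Cry2, Nr1d2 and Dbp. When arrays were weighted by their fit over all probe sets, its array had the lowest weight, 0.52. The weight was 0.619 for caNrf2 array 2 and 1.176 to 1.461 for the others. The part of array quality in this order was not tested. In control skin, animal 1 was the lowest for 5 genes and animal 3 the highest for 5.

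**Figure D4:**
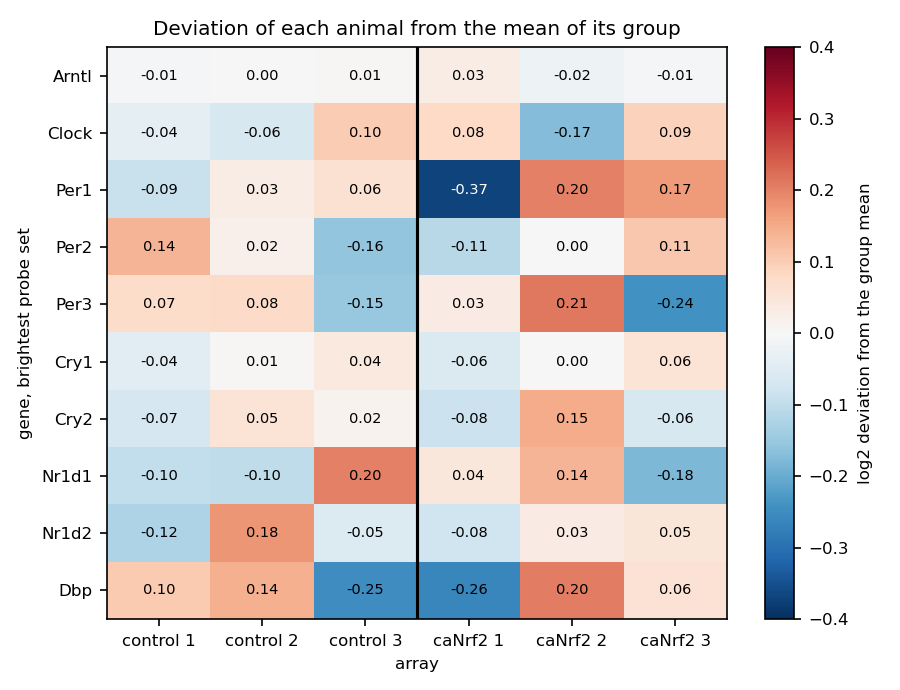
Deviation of each animal from the mean of its group for the brightest probe set of each clock gene (rows) on each array (columns), as a colour from -0.4 to 0.4 (log2) with the value printed. The strongest cell is Per1 on caNrf2 array 1, and the row of Arntl is nearly blank.

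Over the 6 arrays, Dbp correlated with Per2 at r = 0.69 (rho = 0.54), with Per1 at r = 0.62 (rho = 0.54) and with Clock at r = -0.62 (rho = -0.60). None of the 8 relations with Dbp passed (exact permutation p from 0.138 to 0.622, adjusted p from 0.587 to 0.756 over the 17 pairs computed). For rho the exact permutation p ran from 0.175 to 0.658 and the adjusted p from 0.632 to 0.861. When the 2 arrays farthest from the Dbp median, control 3 and caNrf2 1, were left out, r was 0.14 for Per2, 0.66 for Per1 and -0.38 for Clock, so that the value for Per2 rested on them. With group means removed, r was 0.78 for Per2, 0.60 for Per1 and -0.80 for Clock. With Nr1d1, r changed from -0.48 to 0.76 without those arrays. The Arntl values fell into separate clusters of 3 by group, so that no pooled r is given for the pairs with Arntl, which count among the 17.

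Genes with a pattern over the 6 arrays most like that of Dbp were sought among 20120 probe sets of at least the median level that carry 1 symbol. They were Peak1 (r = 0.994), Itgb5 and Gna13 (0.987 each), Ube2j1 (0.987) and Casp6 (0.986), and 79 probe sets had r above 0.95. None of these 5 passed the threshold between the groups (adjusted p between 0.864 and 0.978). Most like Arntl were Zfp830 (r = 0.999), Nfe2l2 (0.997), Pgrmc1 (0.996), Gstm3 (0.994) and Pdlim5 (0.994), among 122 probe sets above 0.95. Nfe2l2 encodes Nrf2 itself, and Pgrmc1 and Gstm3 passed the threshold between groups, with differences of 0.53 (adjusted p = 0.0114) and 0.57 (adjusted p = 0.00856). Since Arntl was tight within groups, likeness to it follows the shift between groups. With 6 arrays such values of r are a description.

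Other regulators and outputs of the clock were covered by 66 probe sets of 23 genes out of 26 listed, and none passed the threshold. In this list 47 probe sets lay above and 19 below 0, with a median of 0.05. Of all probe sets 48.4% lay above 0, and of those at or above the median level 13316 of 22519. Rora gave 7 and Nampt 3 of the 47. With the brightest probe set of each gene, 16 of the 23 genes lay above 0. At an unadjusted p under 0.05 there were 14, 12 of them higher, against 8.86% of all probe sets. Of these 12, Rora gave 7 and Nampt 3. On the brightest probe set of each gene 3 of the 23 genes had such a p, 2 higher and 1 lower. The groups did not overlap for 11 higher and 2 lower, or 19.7%, against 14.2% of all probe sets. Of the 22519 at or above the median level they did not overlap for 2166 higher and 954 lower. Rora gave 6 and Nampt 3 of the 11, and with the brightest probe set of each gene the groups did not overlap for 3 of the 23 genes. The casein kinases Csnk1d and Csnk1e, which phosphorylate PER proteins, differed by 0.07 at most in 8 probe sets. The D-box factor Tef (3 probe sets, up to 0.07), the E-box repressor Bhlhe40 (0.06) and the D-box repressor Nfil3 (-0.05) also overlapped; these 5 genes were named after their values were seen. Fbxw11 and Gsk3b, an F-box protein and a kinase that act on PER and CRY stability, did not pass either. The 5 Fbxw11 probe sets differed by 0.05 to 0.23, with 0.05 on the brightest (smallest adjusted p = 0.443). Of the 6 Gsk3b probe sets 3 lay above and 3 below 0, with a median of 0.01 (smallest adjusted p = 0.504). Rorb, with -0.22 ± 0.07 on 1 dim probe set (adjusted p = 0.414), and Arntl2, with -0.20 ± 0.08 (adjusted p = 0.520), were those without overlap that lay lower.

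Nampt, the rate-limiting enzyme of NAD salvage and a known clock output, came nearest to the threshold. Its brightest probe set measured 8.39, 8.42 and 8.42 in control and 8.80, 8.76 and 8.89 in caNrf2 skin. All 3 Nampt probe sets separated the groups, with differences of 0.40, 0.39 and 0.32. The brightest, at 0.40 ± 0.07 or 1.32-fold, had an adjusted p of 0.0728. It passed under 4 alternatives, with 0.023 among brighter probe sets only, 0.0238 with an intensity trend, 0.0361 with array weights and 0.0459 with 1 probe set per gene. The smallest adjusted p of Nampt lay between 0.0666 and 0.326 under the other 11.

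Rora encodes the receptor that activates Arntl through the RORE. Of its 9 probe sets 7 lay higher in caNrf2 skin, 6 of them without overlap, and 2 lay lower with overlap. The brightest measured 10.26, 10.23 and 10.22 in control and 10.50, 10.45 and 10.53 in caNrf2 skin. Its difference of 0.26 ± 0.07 did not pass (adjusted p = 0.335, the smallest of the 9). The 2 that lay lower, by 0.15 and 0.09, were the dimmest of the 9.

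**Figure D5:**
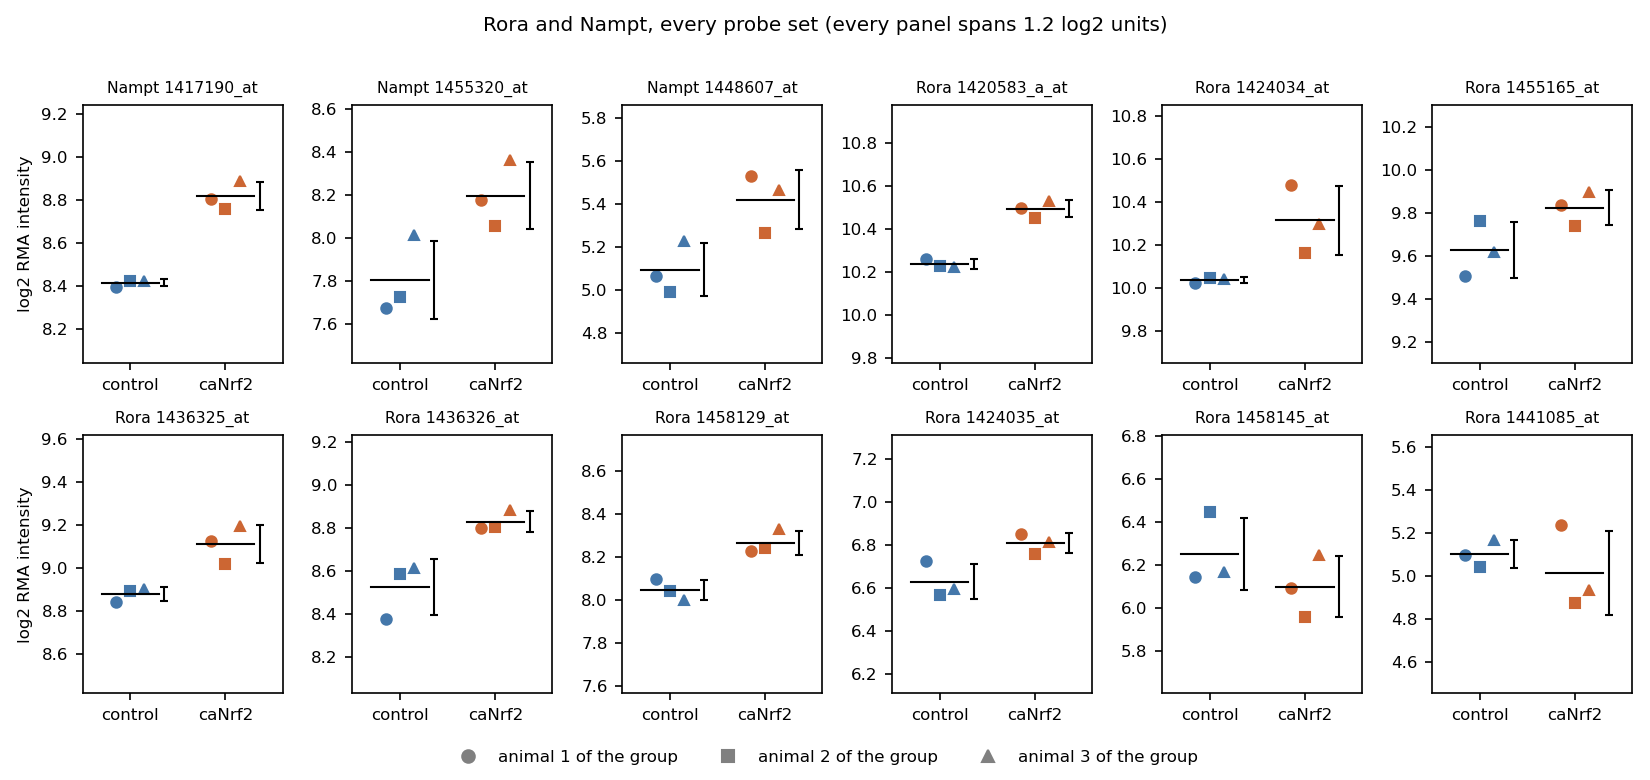
Log2 RMA intensity of every Nampt and Rora probe set (y axis) in control and caNrf2 skin (x axis), with single animals as symbols, group means as lines and SD as bars (n = 3). All 3 Nampt panels and 6 of the 9 Rora panels show every caNrf2 animal above every control animal.

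Immediate early genes, among which Per1 is often counted, were followed beside Per1 with 32 probe sets of 20 genes. None passed, the median difference was 0.10, and the groups did not overlap for 12 higher and 2 lower, or 43.8%, against 14.2% of all probe sets (6.9% higher and 7.28% lower). With the brightest probe set of each gene they did not overlap for 7 of the 20. The list was bright, with a median log2 level of 9.43. Of the 22519 probe sets at or above the median level of all, the groups did not overlap for 2166 higher and 954 lower. Fos measured 10.01, 9.68 and 9.73 in control and 10.65, 10.22 and 9.92 in caNrf2 skin, with the highest value on the array on which Per1 was lowest. The list did not follow one order. Among its 6 genes with the smallest p, Jund measured 11.63, 11.84 and 11.86 in caNrf2 skin on its brightest probe set, lowest on that same array. On the brightest probe sets of Atf3, Dusp1, Klf6 and Zfp36 that array was neither the highest nor the lowest of the caNrf2 arrays. Of glucocorticoid response genes, which share their inducer with Per1, 28 probe sets of 12 genes gave a median of 0.01, none passed and 14.3% did not overlap, near the 14.2% of all probe sets. The part of either list in the Per1 values was not tested.

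The check of the transgene went with the labels: Nqo1, a target of Nrf2, measured 5.67 to 6.20 in control and 9.42 to 9.70 in caNrf2 skin. The 4 genes of this check had 9 probe sets, all higher in caNrf2 skin, of which 6 passed. On the brightest probe set 3 of the 4 genes passed. Nfe2l2, which encodes Nrf2, was higher by 0.415 and did not pass (limma, adjusted p = 0.0812). The arrays had medians of 80.7 to 81.9 intensity units, and their number, 3 per group, limits the precision. Of 8 lists of cell type markers none held a gene that passed, and keratinocyte markers (5 of 6 measured) summed to 63198 to 65515 intensity units in control and 63332 to 66269 in caNrf2 skin. Skeletal muscle, a tissue with a strong clock of its own, summed to 42192 to 43839 and 40948 to 45441, and adipocyte markers to 26288 to 28851 and 26026 to 26694. In all 8 lists the ranges of the summed level overlapped, and the dimmest marker used, S100b, averaged 6.09 (log2) on its brightest probe set.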

How the data were processed

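RNA of 6 skins was hybridised to 3-prime expression arrays, from 2 µg per animal per the labels' protocols. The authors deposited linear RMA intensity values, 1 for each probe set on each array; RMA (per the submitters' processing notes) corrects background, evens out the arrays by quantiles and summarises probes, so shifts shared by most genes are removed. Its software version is not stated here. Columns of other series numbered 0.

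After conversion of the deposited values to log2, 64 control probe sets were left out. The other 45037 entered 1 linear model per probe set with moderated variances (limma 3.58.1, R 4.3.3; group as the only term, 4 residual degrees of freedom). P-values were adjusted over all of them by Benjamini and Hochberg's method, with a threshold of 0.05. Differences are caNrf2 minus control, and errors are SE from the fit unless called SD. The fit was tested on simulated data. Replicates were separate animals of 1 litter.

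The 10 genes and the lists were chosen with earlier results of these data known. The rule named all 10 genes, up to 6 genes with the smallest p of each list, check genes, and the 5 genes most like Dbp and Arntl. Csnk1d, Csnk1e, Tef, Bhlhe40, Nfil3 and Usp2 fall outside it. So do the glucocorticoid response genes Sgk1, Errfi1, Mt2, Sult1a1, Cebpd and Lcn2. Of the listed symbols, 8 were not matched by a probe set with 1 symbol. Alternatives changed the scaling (median or quantile), the probe sets (bright ones, the brightest or the mean of a gene), the variance model (trend, robust, weights), the blocking by replicate number, or left out 1 array.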

Additional observations from a re-analysis of the deposited data

How the results depend on the processing

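No clock probe set passed the threshold under any of the 15 alternatives, and the smallest adjusted p was 0.123. The sign was kept by 12 of the 23 under each alternative that gave the probe set a value, which was all 15 for 4 of them and 12 to 14 for the others. Sign changes concerned probe sets with main differences between -0.09 (Nr1d1) and 0.10 (the brightest of Clock). The median absolute difference of the 23 was 0.101. With median centring the dim Per3 probe set at -0.0024 became 0.0039. With a further quantile normalisation it became 0.0341, the dimmest Per2 probe set 0.0096 and the second Dbp probe set -0.0069. The mean of its probe sets gave -0.0612 for Clock, and array weights gave 0.0287 for the dimmest Per2 probe set. When single arrays were left out, values ran from -0.0097 to 0.1556 for Arntl probe set 2, from -0.0946 to 0.0489 for Per2 probe set 3, from -0.1439 to 0.0825 for Per3 probe set 1, from -0.0448 to 0.0673 for Per3 probe set 3, from -0.0919 to 0.0321 for Per3 probe set 5, from -0.1401 to 0.0097 for Per3 probe set 6, from -0.0320 to 0.0845 for Cry2, from -0.1561 to 0.0133 for Nr1d1, from -0.0515 to 0.2028 for Dbp probe set 1 and from -0.1665 to 0.1874 for Dbp probe set 2, where probe sets of a gene are numbered by falling brightness. The correlation of Dbp with Nr1d1 became 0.76 without 2 arrays. Among other clock regulators 1 probe set, of Nampt, passed with the filter on dim probe sets, with 1 probe set per gene, with an intensity trend and with array weights. Over all features 108 probe sets passed, 68 genes with the brightest probe set per gene, and 63 with the mean. When an array was left out 64 to 136 passed, with 64, 67 and 69 without control array 2, 3 and 1. The 136 were those without caNrf2 array 1. Deviations of same-numbered arrays correlated at -0.1478, -0.0368 and 0.0387, and those of differently numbered arrays at -0.1312 to 0.1611. No pairing by number was seen, but with 3 arrays per group this check has little resolution and cannot exclude it. With the replicate block 97 passed and 0 clock probe sets, the smallest adjusted p being 0.594, for Cry1. Fewer features were tested with the filter and per gene; other causes were not tested. Scaling alternatives moved the median of all probe sets by at most 0.006, but single probe sets moved more. The further quantile normalisation lowered the difference of the brightest Arntl probe set from 0.1457 to 0.1091 and that of Cry1 from 0.1969 to 0.1619. It raised that of the dimmer Arntl probe set from 0.0931 to 0.1125. The brightest Nampt probe set went from 0.402 to 0.368, with an adjusted p (limma) of 0.125. Background correction and slide blocks need scanner files, which were not used here.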

Other observations

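Tsc22d3, a glucocorticoid-induced leucine zipper gene chosen here after its values were seen, had 1 of 4 probe sets on which the animals were uneven in the way that they were for Per1. That probe set measured 8.63, 8.68 and 8.55 on control arrays 1 to 3 and 8.34, 9.003 and 8.88 on caNrf2 arrays 1 to 3, with caNrf2 animal 1 below and the other two caNrf2 animals above all controls. The difference between group means was 0.12 ± 0.14 (limma, adjusted p = 0.851). The brightest Tsc22d3 probe set measured 9.05, 9.10 and 8.99 in control and 8.85, 9.04 and 9.15 in caNrf2 skin, again with caNrf2 animal 1 lowest but with animal 2 inside the control range. On the next, animal 3 (7.47) lay inside it, and on the dimmest all caNrf2 values (4.21 to 4.23) lay below all control values (4.32 to 4.52). The other glucocorticoid response genes did not share one order on their brightest probe sets. Among the caNrf2 animals, animal 1 was the highest for Sgk1, Angptl4, Errfi1, Zbtb16, Mt2 and Sult1a1. It was the lowest for Fkbp5, Cebpd and Lcn2, and lay between the others for Klf9 and Dusp1. Usp2, a clock-controlled deubiquitinase also chosen afterwards, measured 9.66, 9.68 and 9.52 in control and 9.51, 9.95 and 9.75 in caNrf2 skin, and within each group its highest and lowest animals were those of Dbp. The difference was 0.11 ± 0.11 (adjusted p = 0.805). Its other probe set did not repeat that order, with 9.05, 9.05 and 9.03 in control and 9.04, 9.19 and 9.29 in caNrf2 skin. No relation between these genes was tested.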
